A study of Homo sapiens with 15 samples.

Results

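The 50 genes described here encode the machinery that moves secretory and membrane proteins into the endoplasmic reticulum (ER) and between the ER and the Golgi. They were chosen by name, as the subunits of the translocon, the COPII and COPI vesicle coats and the factors that work directly with them. No expression value entered the rule, but earlier results of these data were known when the choice was made. All 50 were among the 17272 genes of the deposited expression table of LNCaP cells.

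A protein with a signal sequence is recognized on the ribosome by the signal recognition particle (SRP), brought to the SRP receptor and threaded through the Sec61 channel, where signal peptidase removes the signal. COPII vesicles then carry it from ER exit sites toward the Golgi, and COPI vesicles return escaped ER proteins, which the KDEL receptors bind. Luminal prostate cells secrete large amounts of protein under the control of androgen, prostate-specific antigen among them, and this route carries that traffic.

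LNCaP is an androgen-sensitive human prostate cancer cell line, and a single line was used. Cells of both groups were starved for 2 days in serum stripped of steroids with charcoal and then exposed for 22 h to the synthetic androgen R1881 at 1 nM, so that no group was without androgen. The R1881 group consisted of 10 libraries with the DMSO vehicle, and the combination group of 5 libraries with R1881 and 2 µM darolutamide, an antiandrogen drug. Poly-A RNA was sequenced in reads of 50 bases, and reads counted per gene were deposited as CPM. What the counts were divided by is not given in the sources used here, and the columns summed to 1053406 to 1078567 with R1881 and 1005403 to 1031224 with the combination, without overlap.

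The libraries held 15830745 to 25317567 reads each in the table. The library numbers ran from 51 to 55 and from 71 to 75 for R1881 and from 86 to 90 for the combination, so treatment and run of numbers cannot be told apart. KLK3, which encodes prostate-specific antigen, averaged 1588 ± 209 CPM (± SD, n = 10) in the R1881 group and 615 ± 55.9 CPM (n = 5) in the combination group. Its log2 fold change was -1.36 ± 0.085 (± SE, limma adjusted p = 3.26e-10). KLK3 also differed between the R1881 runs, with a mean of 1397 CPM in libraries 51 to 55 and 1779 CPM in 71 to 75. That log2 difference was 0.35 (limma adjusted p = 0.000227). All 9 listed luminal prostate markers were in the table, at a summed level of 7906 to 9192 CPM with R1881 and 4641 to 4914 CPM with the combination. Of 6 fibroblast markers 3 were in the table, and their sum was 6.36 to 10.5 CPM with R1881 and 13.5 to 30.6 CPM with the combination. The basal marker KRT14 (1 of 3 in the table) was at 0.706 to 1.44 and 0.528 to 0.878 CPM, the endothelial marker VWF (1 of 3) was at 2.08 to 2.84 and 3.57 to 4.10 CPM, and 0 of 6 leukocyte markers were in the table. Mitochondrial transcripts made up 2.65% to 3.02% of the reads with R1881 and 3.12% to 3.94% with the combination. The part of these differences in the results below was not tested.

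Most of the secretory machinery was lower in the libraries with darolutamide. Of the 50 genes, 41 were lower with the combination than with R1881, 1 was higher and 8 did not pass the test (limma on log2(CPM + 0.5), Benjamini-Hochberg adjusted p under 0.05 over all 17272 genes). Of all 17272 genes 23.7% were lower by this test and 22.8% were higher, and among the 12149 genes with a mean of at least 5 CPM 29.4% were lower. The 50 genes had a median log2 fold change of -0.42, beside 0.00 for all genes and -0.03 for the genes with at least 5 CPM. The values ran from -1.16 for SEC24D to 0.13 for SEC23A. For 38 of the 50 genes every combination library was below every R1881 library, against 12.6% of all genes. For 0 of the 50 was every combination library above. The share of all genes in that direction was not computed, so this 0 has no comparison. The typical change was moderate, since the median gene kept 75.0% of its R1881 level and 17 genes had a log2 fold change of -0.5 or less, where 6.68% of all genes passed the test with a change of that size. In RNA from whole cultures, fewer cells with a transcript and less of the transcript per cell cannot be told apart.

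**Figure D1:**
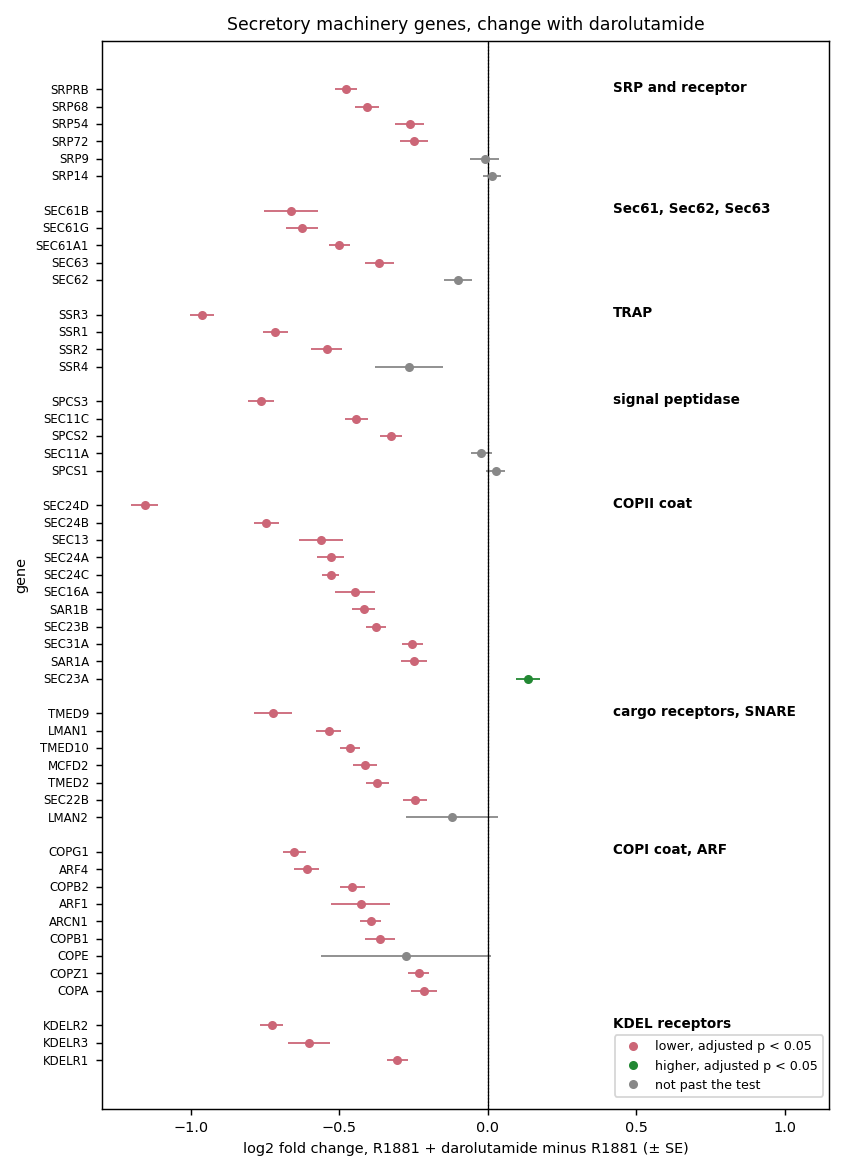
Log2 fold change of each of the 50 genes (x axis, combination minus R1881, bars ± SE) by complex (y axis). Red points passed the test as lower (41 genes), the green point is SEC23A as higher, and gray points did not pass (8 genes). SEC24D at -1.16 and SSR3 at -0.96 lie farthest to the left.

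The size of the change varied across the complexes. The median log2 fold change was -0.63 for the translocon-associated protein complex, -0.60 for the KDEL receptors and -0.50 for the Sec61 group. It was -0.45 for the COPII coat, -0.41 for the cargo receptors, -0.39 for the COPI coat, -0.33 for signal peptidase and -0.26 for SRP and its receptor. These medians are descriptions, and the differences between the complexes were not tested.

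Scaling bears on the direction of small changes. On the deposited scale 4098 genes of the table were lower and 3946 higher, so 50.9% of the calls were lower. With every library set to the same total, 3030 were lower and 5326 higher, or 36.3% lower, and the median log2 fold change of all genes was 0.066. On that scale 41 of the 50 genes were still lower, with a median of -0.34, and 3 were higher.

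**Figure D2:**
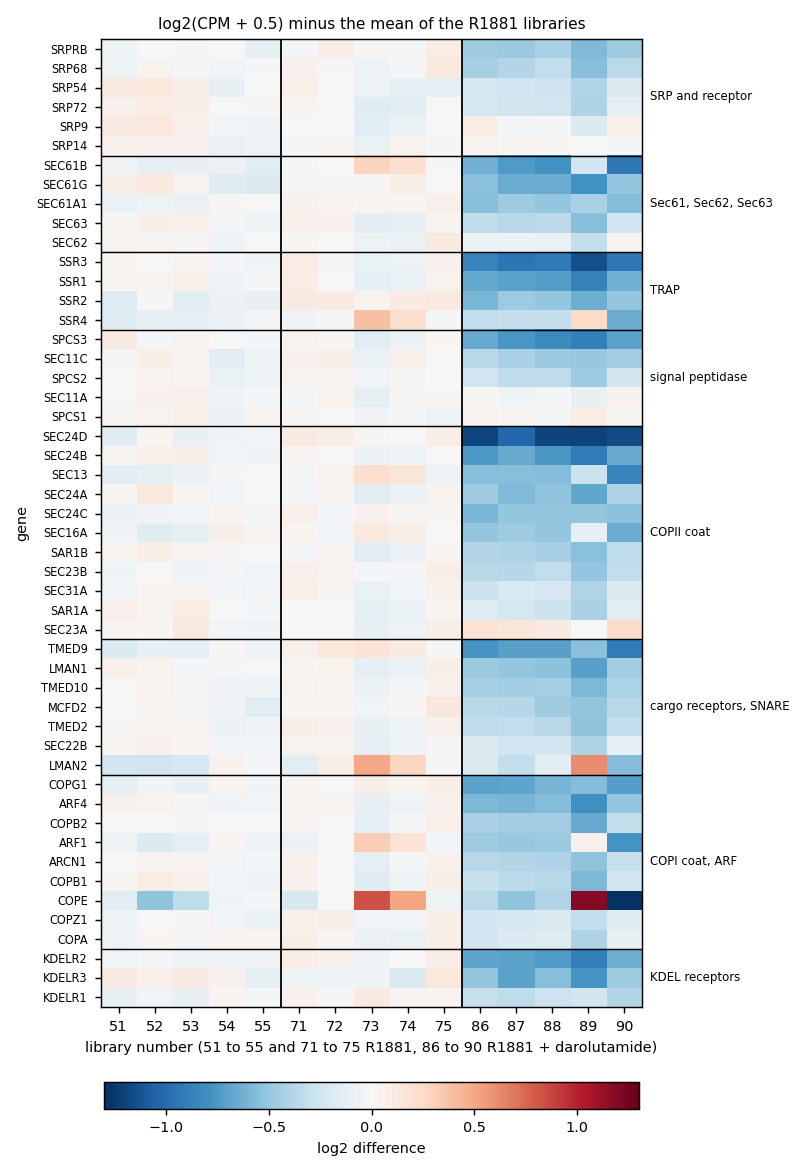
Each cell is the log2(CPM + 0.5) of a gene (y axis, by complex) in a library (x axis, by library number) minus the mean of that gene over the 10 R1881 libraries. The columns 86 to 90 are blue for most genes. Library 89 is red for COPE (95.5 CPM), LMAN2 (149 CPM) and SSR4 (141 CPM).

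Promoters of the genes were read from RefSeq on GRCh38.p14, as 250 bases before to 50 after the annotated start, and 45 of the 50 genes had an entry. SEC24D, TMED9, KDELR2, SPCS1 and ARF4 had none. The letters ACGTGGC, known as the Golgi apparatus stress response element (GASE), were found on either strand in 19 of the 45 promoters (42.2%), beside 3.30% of all 27305 promoters. The letters TGACGTGG, a core of the unfolded protein response element (UPRE), were found in 9 (20%), beside 0.795% of all. The last 6 letters of the second are the first 6 of the first, and in 5 of the 6 promoters with both the matches overlapped in the run TGACGTGGC. The letters AGAACA, a single arm of the androgen response element, were in 3 promoters (6.67%), beside 14.9% of all, and the palindrome of 2 such arms with a gap of 3 bases, the cyclic AMP response element TGACGTCA and the ER stress response elements ERSE and ERSE-II were in 0 of the 45. A match describes the letters in this window and not a bound site. The median log2 fold change was -0.45 for the 19 genes with ACGTGGC, of which 18 were lower, and -0.33 for the 26 without, of which 19 were lower. For TGACGTGG it was -0.43 for the 9 genes with the letters, of which 7 were lower, and -0.40 for the 36 without, of which 30 were lower. The 5 genes with no entry are in neither comparison. Their log2 fold changes were -1.16 for SEC24D, -0.73 for KDELR2, -0.72 for TMED9, -0.61 for ARF4 and 0.027 for SPCS1. Large falls are thus left out of these medians. The promoters of SSR3 and SPCS3 are shown because these genes had the largest falls among those with an entry. The SSR3 stretch (270 bases, chr3:156555098-156555367, minus strand) has the GASE letters in capitals at bases -212 to -206 from the start. It also holds AGAACA on the opposite strand at bases 7 to 12, left in lower case. The SPCS3 stretch (chr4:176319716-176319985, plus strand) had no match, and both end 20 bases after the start.
SSR3: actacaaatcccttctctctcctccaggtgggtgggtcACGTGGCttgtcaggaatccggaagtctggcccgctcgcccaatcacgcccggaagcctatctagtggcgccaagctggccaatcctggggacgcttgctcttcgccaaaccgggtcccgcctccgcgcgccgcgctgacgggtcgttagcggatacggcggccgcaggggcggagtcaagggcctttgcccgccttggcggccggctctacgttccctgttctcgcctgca
SPCS3: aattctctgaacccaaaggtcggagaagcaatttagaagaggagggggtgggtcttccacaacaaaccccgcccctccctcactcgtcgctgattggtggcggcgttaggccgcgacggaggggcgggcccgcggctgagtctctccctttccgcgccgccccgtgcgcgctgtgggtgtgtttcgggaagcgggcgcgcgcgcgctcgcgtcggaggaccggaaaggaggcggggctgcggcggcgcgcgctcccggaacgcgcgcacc

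SRP binds the emerging signal sequence and its receptor receives the ribosome at the ER membrane. Of the 6 genes of this group 4 were lower and 2 did not pass. SRPRB, the membrane-anchored subunit of the receptor, ranged from 149.5 to 174 CPM with a median of 162 in the R1881 libraries. In the combination libraries 86 to 90, an order kept below, SRPRB was 118, 116, 122, 109 and 118 CPM. The groups did not overlap, and the log2 fold change of SRPRB was -0.48 ± 0.036 (SE, limma adjusted p = 5.41e-09). SRP68, which forms a dimer with SRP72 on the SRP RNA, ranged from 146 to 167 CPM with a median of 151 with R1881. It was 114, 118, 123, 104 and 120 CPM with the combination, with the lowest value in library 89 and no overlap. The log2 fold change of SRP68 was -0.41 ± 0.04 (adjusted p = 1.58e-07).

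The other SRP proteins moved less. SRP54, the GTPase that binds the signal sequence, fell by 0.26 (adjusted p = 0.000215) and SRP72 fell by 0.25 (adjusted p = 0.000289) on the log2 scale, and SRP72 overlapped between groups. SRP9 and SRP14 form the Alu domain that slows translation. SRP9 was 484 ± 29.4 CPM with R1881 and 481 ± 35.2 CPM with the combination (SD, limma adjusted p = 0.876). SRP14 was 372 ± 14.8 and 375 ± 6.10 CPM (adjusted p = 0.728), and with every library set to the same total SRP14 passed as higher (0.087, adjusted p = 0.0242). The annotation names 5 pseudogenes of SRP14 and 1 of SRP9, and reads shared with such copies cannot be placed with certainty.

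The Sec61 channel is a trimer, and Sec62 and Sec63 help proteins that enter after translation. Of these 5 genes 4 were lower. SEC61A1, the subunit that forms the pore, ranged from 725 to 806 CPM with a median of 788 with R1881. Its values with the combination were 527, 559, 546, 577 and 523 CPM, all below the R1881 range, and the log2 fold change was -0.50 ± 0.034 (adjusted p = 1.25e-09). SEC61G, a small subunit with a single membrane span, ranged from 70.0 to 86.4 CPM with a median of 79.9 with R1881. It was 54.0, 50.6, 50.5, 45.5 and 55.2 CPM with the combination, again without overlap, for a log2 fold change of -0.63 ± 0.054 (adjusted p = 2.83e-08). SEC61B, the other small subunit, fell by 0.66 ± 0.091 on the log2 scale (adjusted p = 9.62e-06). It was more variable, at 60.1, 55.5, 53.6, 77.8 and 48.5 CPM in the combination libraries with the highest value in library 89. SEC63, whose J domain recruits the chaperone BiP to the channel, fell by 0.36 (adjusted p = 5.92e-06), while SEC62 was 162 ± 6.91 CPM with R1881 and 151 ± 12.6 CPM with the combination (adjusted p = 0.0825). Without library 90 SEC62 passed as lower (-0.13, adjusted p = 0.025).

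The translocon-associated protein (TRAP) complex sits beside the Sec61 channel and aids the insertion of some signal sequences. Its alpha, beta and gamma subunits SSR1, SSR2 and SSR3 were lower, and the delta subunit SSR4 did not pass. SSR3 ranged from 379.6 to 430.3 CPM with a median of 404 with R1881. With the combination it was 220.3, 208, 212, 182 and 212 CPM, 51.3% of its R1881 mean and far below the R1881 range. The log2 fold change of SSR3 was -0.96 ± 0.041 (adjusted p = 1.6e-12), the second lowest of the 50. SSR1 ranged from 408 to 473 CPM with a median of 446 with R1881. It was 277, 272, 268, 240.3 and 287 CPM with the combination, with the lowest value in library 89 and no overlap, and the log2 fold change was -0.72 ± 0.042 (adjusted p = 1.53e-10). SSR2 fell by 0.54 ± 0.053 (adjusted p = 1.33e-07), and it was 1 of 2 members that also differed between the R1881 runs, being 0.20 higher in libraries 71 to 75 than in 51 to 55. SSR4 was 93.7, 94.7, 94.1, 141 and 74.5 CPM in the combination libraries, where library 89 stood above the other 4. Its log2 fold change was -0.27 ± 0.11 (adjusted p = 0.0644), and -0.40 (adjusted p = 0.000764) without that library.

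**Figure D3:**
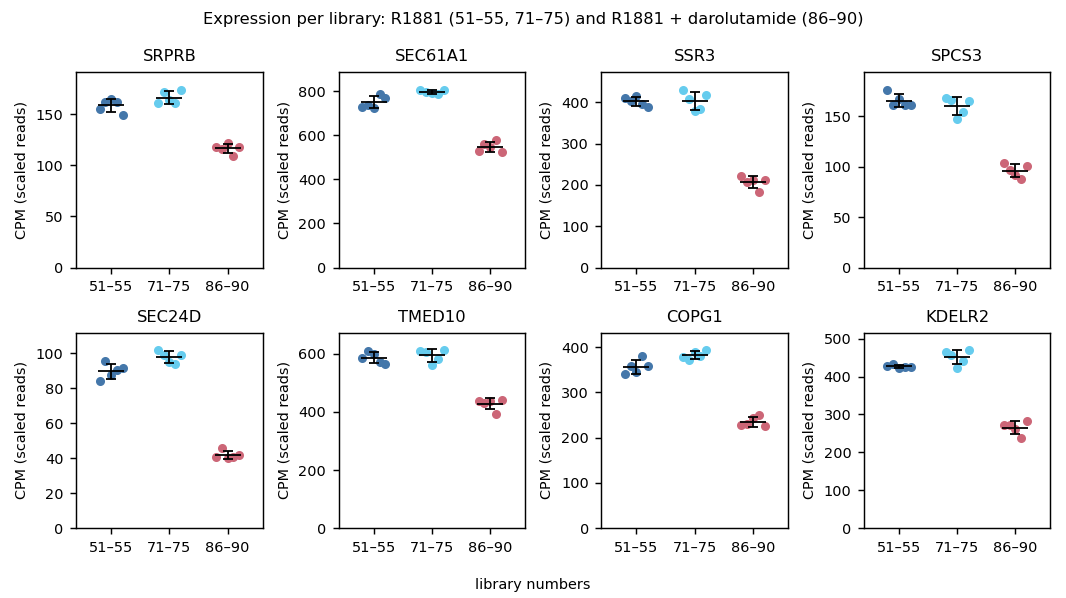
CPM (y axis, from 0) of the gene with the smallest p in each of the 8 groups, per library, for R1881 libraries 51 to 55 and 71 to 75 and combination libraries 86 to 90 (x axis). Horizontal bars are means and error bars SD (n = 5 each). In each panel the combination libraries lie below all R1881 libraries, for SSR3 at 182 to 220 CPM beside 380 to 430 CPM.

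Signal peptidase cleaves the signal sequence on the ER side of the membrane. Its catalytic subunit exists as SEC11A or SEC11C, and SPCS1, SPCS2 and SPCS3 are accessory subunits. SPCS3 ranged from 147 to 176 CPM with a median of 163 with R1881. It was 103, 96.2, 91.5, 87.3 and 100.5 CPM with the combination, with no overlap and a log2 fold change of -0.76 ± 0.044 (adjusted p = 1.15e-10). SEC11C ranged from 197 to 230.5 CPM with a median of 221 with R1881. Its combination values were 169.5, 163, 156, 155 and 159 CPM, all below that range, and the log2 fold change was -0.44 ± 0.039 (adjusted p = 4.44e-08). SPCS2 fell by 0.33 ± 0.037 (adjusted p = 9.67e-07), and the annotation names 4 pseudogenes of it. SEC11A did not pass, at 122 ± 4.79 CPM with R1881 and 119.6 ± 4.88 CPM with the combination (adjusted p = 0.636). SPCS1 did not pass either, at 108 ± 3.81 and 109.8 ± 3.44 CPM (adjusted p = 0.532), and it passed as higher when every library was set to the same total (0.098, adjusted p = 0.0134). The promoters of the 2 catalytic genes are shown because these alternative subunits moved apart. SEC11C (chr18:59139634-59139903, plus strand) has ACGTGGC at bases -41 to -35, in capitals, and SEC11A (chr15:84716120-84716389, minus strand) had no match.
SEC11C: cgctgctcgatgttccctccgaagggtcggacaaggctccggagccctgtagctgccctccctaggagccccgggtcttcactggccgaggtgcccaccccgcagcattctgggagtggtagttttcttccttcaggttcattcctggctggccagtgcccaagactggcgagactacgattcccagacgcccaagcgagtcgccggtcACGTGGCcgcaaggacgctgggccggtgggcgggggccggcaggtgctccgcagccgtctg
SEC11A: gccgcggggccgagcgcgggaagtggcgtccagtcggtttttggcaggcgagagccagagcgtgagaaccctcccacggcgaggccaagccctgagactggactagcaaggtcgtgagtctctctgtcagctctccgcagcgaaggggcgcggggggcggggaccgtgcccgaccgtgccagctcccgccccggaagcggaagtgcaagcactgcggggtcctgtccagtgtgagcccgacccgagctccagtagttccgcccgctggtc

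COPII vesicles form when a SAR1 GTPase recruits the inner coat of SEC23 and SEC24 and then the outer coat of SEC13 and SEC31. All 11 genes of this group passed the test, 10 as lower and SEC23A as higher. SEC24D, a cargo-binding subunit of the inner coat, ranged from 84.05 to 102 CPM with a median of 94.5 with R1881. With the combination it was 40.7, 45.8, 40.4, 40.5 and 41.7 CPM, or 44.9% of its R1881 level by the log2 fold change. The groups lay far apart, and the log2 fold change of -1.16 ± 0.046 (adjusted p = 5.52e-13) was the lowest of the 50 and the only member value below -1. SEC24C, the closest relative of SEC24D, ranged from 328 to 361 CPM with a median of 345 with R1881. It was 229, 243, 241, 243 and 237 CPM with the combination, without overlap, and the log2 fold change was -0.53 ± 0.029 (adjusted p = 4.56e-11). SEC24B fell by 0.75 ± 0.042 (adjusted p = 7.02e-11) and SEC24A fell by 0.53 ± 0.046 (adjusted p = 3.04e-08), so all 4 SEC24 genes were lower.

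The rest of the coat was lower too, apart from SEC23A. SEC13 fell by 0.56 ± 0.074 and SEC16A, the scaffold of ER exit sites, fell by 0.45 ± 0.068, both with their highest combination value in library 89 (90.9 and 184 CPM). SEC31A fell by 0.25, SAR1B fell by 0.42 and SAR1A fell by 0.25, and 4 pseudogenes of SAR1A are annotated. SEC23B, which activates the GTPase of SAR1, fell by 0.38 (adjusted p = 5.66e-08). Its paralog SEC23A ranged from 139 to 161 CPM with a median of 149 with R1881. SEC23A was 169, 166, 160.2, 148 and 176 CPM with the combination, so the groups overlapped through library 89. The log2 fold change of SEC23A was 0.13 ± 0.041 (adjusted p = 0.012), and against R1881 libraries 51 to 55 alone it did not pass (0.12, adjusted p = 0.0796). The promoters of this pair are shown because SEC23A was the only member that passed as higher. SEC23A (chr14:39103216-39103485, minus strand) has the overlapping UPRE and GASE letters, in capitals, across the start at bases -4 to 5. SEC23B (chr20:18507298-18507567, plus strand) had no match.
SEC23A: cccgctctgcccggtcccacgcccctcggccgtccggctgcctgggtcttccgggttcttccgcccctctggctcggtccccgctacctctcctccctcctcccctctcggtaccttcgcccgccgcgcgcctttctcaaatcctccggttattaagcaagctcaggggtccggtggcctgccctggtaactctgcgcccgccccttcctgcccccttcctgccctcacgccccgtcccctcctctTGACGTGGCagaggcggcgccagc
SEC23B: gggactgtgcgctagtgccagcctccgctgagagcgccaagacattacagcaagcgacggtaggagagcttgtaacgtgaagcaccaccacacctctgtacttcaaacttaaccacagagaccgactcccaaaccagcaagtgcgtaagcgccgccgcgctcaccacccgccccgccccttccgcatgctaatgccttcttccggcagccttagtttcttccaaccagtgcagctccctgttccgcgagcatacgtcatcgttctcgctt

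Cargo receptors select proteins for COPII vesicles, and 6 of the 7 genes in this group, which includes the vesicle SNARE SEC22B, were lower. TMED10, a transmembrane adaptor that links cargo to the coats, ranged from 561 to 611 CPM with a median of 592 with R1881. It was 437, 431, 436, 394 and 442 CPM with the combination, with no overlap and a log2 fold change of -0.46 ± 0.032 (adjusted p = 1.46e-09). LMAN1, a lectin that carries coagulation factors together with MCFD2, ranged from 372 to 428 CPM with a median of 412 with R1881. It was 291, 286, 281, 248.9 and 296 CPM with the combination, below all R1881 values, and the log2 fold change was -0.54 ± 0.043 (adjusted p = 9.49e-09). The partner MCFD2 fell by 0.41 ± 0.041 (adjusted p = 2.03e-07). TMED9 fell by 0.72 ± 0.063 (adjusted p = 3.41e-08), the largest fall of this group, and was the second member that differed between the R1881 runs, by 0.19 (libraries 71 to 75 minus 51 to 55). TMED2 fell by 0.37 and SEC22B fell by 0.24. LMAN2, another lectin of the early secretory pathway, was 85.01, 77.9, 88.1, 149 and 65.5 CPM with the combination and 81.0 to 138 CPM with R1881. Its log2 fold change was -0.12 ± 0.15 (adjusted p = 0.557), and -0.30 (adjusted p = 0.0321) without library 89.

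The COPI coat, or coatomer, is recruited to Golgi membranes by ARF GTPases. Of the 9 genes 8 were lower. COPG1, the gamma subunit, ranged from 339.7 to 393 CPM with a median of 374 with R1881. It was 228, 229, 242, 249.3 and 225 CPM with the combination, with no overlap, and the log2 fold change was -0.65 ± 0.038 (adjusted p = 1.56e-10). ARF4 ranged from 393 to 440.3 CPM with a median of 429.9 with R1881. Its values with the combination were 281, 278, 285, 244 and 299 CPM, all below that range, for a log2 fold change of -0.61 ± 0.042 (adjusted p = 1.21e-09). Of the other coat subunits, COPB2 (beta prime) fell by 0.46, ARCN1 (delta) fell by 0.39 and COPB1 (beta) fell by 0.36. COPZ1 (zeta) fell by 0.23 and COPA (alpha) fell by 0.21, and none of these 5 overlapped between groups. The annotation names 4 pseudogenes of ARF4 and 3 of ARF1.

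ARF1 and COPE, the epsilon subunit, were the most uneven members of the COPI group. ARF1 was 344, 337, 340.5, 492.6 and 279 CPM with the combination, and library 89 lay inside the R1881 range of 419 to 593 CPM. Its log2 fold change was -0.43 ± 0.10 (adjusted p = 0.00192) with all libraries and -0.48 (adjusted p = 3.61e-05) without libraries 89 and 90. COPE ranged from 29.1 to 74.8 CPM with a median of 40.2 with R1881, where libraries 73 and 74 were highest. It was 32.8, 28.96, 31.8, 95.5 and 16.9 CPM with the combination, so libraries 89 and 90 held the highest and lowest values of all 15. The log2 fold change of COPE was -0.28 ± 0.29 (adjusted p = 0.465), and -0.64 (adjusted p = 0.0109) without library 89.

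The KDEL receptors bind the KDEL-type tail of ER chaperones and return them in COPI vesicles. All 3 were lower, and none overlapped between groups. KDELR2 ranged from 424 to 469 CPM with a median of 430.5 with R1881. It was 272, 271, 262, 237 and 283 CPM with the combination, 60.4% of its R1881 mean, and the log2 fold change was -0.73 ± 0.04 (adjusted p = 4.83e-11). KDELR3 ranged from 7.11 to 8.998 CPM with a median of 8.15 with R1881. It was 5.54, 4.83, 5.38, 4.57 and 5.76 CPM with the combination, which gave a fold change on the log2 scale of -0.60 ± 0.07 (adjusted p = 1.47e-06). KDELR1 changed less, from 146 ± 6.61 to 118 ± 4.38 CPM, and fell by 0.30 ± 0.036 on the log2 scale (adjusted p = 1.91e-06).

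Several steps are served by paralogous genes, and the balance between them was compared as the log2 ratio of CPM + 0.5 within each library. The difference of the mean ratio was tested for 10 pairs with a two-sided exact permutation test over the 15 libraries, whose smallest possible p is 0.000666, and adjusted over the 10 pairs. In 8 pairs the ratio shifted with adjusted p under 0.05, and in 7 of them the libraries of the groups did not overlap (exact p = 0.000666, adjusted p = 0.000951 each). How often pairs of other genes shift was not computed, so these counts do not set the paralogs apart. The KDEL receptor pairs also share genes with each other. The largest shift was in SEC24C over SEC24D, which moved from 1.87 ± 0.069 to 2.50 ± 0.073 (SD), a difference of 0.63. SEC23A over SEC23B moved from -1.17 ± 0.075 to -0.66 ± 0.054, a difference of 0.51. SEC11A over SEC11C moved from -0.84 ± 0.051 to -0.42 ± 0.06, and KDELR1 over KDELR2 from -1.58 ± 0.074 to -1.16 ± 0.15, both by 0.42. In each of these 4 pairs the gene named first gained relative to its paralog.

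The shifts of the other pairs were smaller. SEC24A gained on SEC24B by 0.22, SAR1A on SAR1B by 0.17 and TMED2 on TMED10 by 0.092. KDELR1 gained on KDELR3 by 0.30 (exact p = 0.00666, adjusted p = 0.00833), and here the groups overlapped, with 3.88 to 4.30 in the R1881 libraries and 4.17 to 4.61 in the combination libraries. The ratio of KDELR2 to KDELR3 differed by -0.13 and did not pass (exact p = 0.0513, adjusted p = 0.0570), while with a pseudocount of 1 it was -0.17 (exact permutation test, adjusted p = 0.0104). For ARF1 over ARF4 the difference of 0.18 was within the spread (exact p = 0.292, adjusted p = 0.292), and the ratio ran from -0.099 to 1.01 in the combination libraries.

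**Figure D4:**
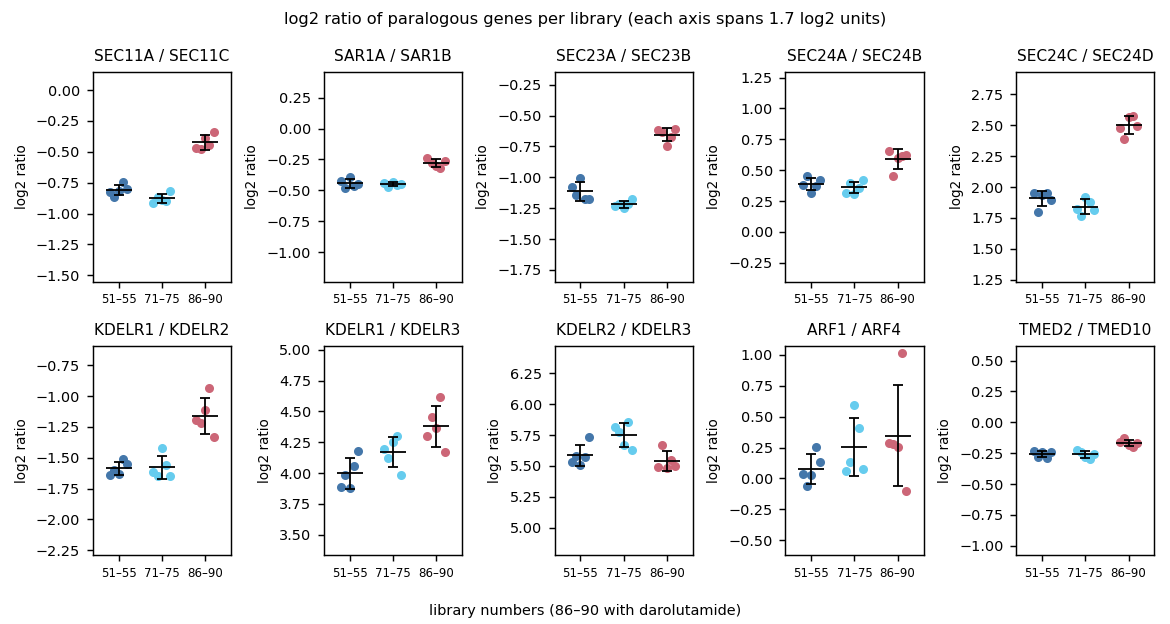
Log2 ratio of the members of 10 paralogous pairs (y axis, each spanning the same width) per library, for R1881 libraries 51 to 55 and 71 to 75 and combination libraries 86 to 90 (x axis). Bars are means and SD (n = 5 each). The combination libraries lie above all R1881 libraries in 7 panels, by 0.63 on average for SEC24C over SEC24D, and overlap with them for ARF1 over ARF4.

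At the median, the R1881 libraries of the 2 runs differed little for these genes. Between libraries 71 to 75 and 51 to 55, 0 of the 50 genes were lower, where 2.29% of all genes were, and 2 were higher (SSR2, adjusted p = 0.0122, and TMED9, adjusted p = 0.0388), where 0.805% of all genes were. With single libraries left out 1 to 4 members were higher, 4 of them without library 71. The median difference of the 50 genes was 0.012 on the log2 scale, beside -0.010 for all genes. Single members ran from -0.10 for SRP72 to 0.43 for COPE, whose log2 fold change with darolutamide was -0.28. LMAN2 differed by 0.28 between the runs and by -0.12 with darolutamide. Neither COPE nor LMAN2 passed the test between the runs. Against libraries 51 to 55 alone the median log2 fold change with darolutamide was -0.39, and against libraries 71 to 75 alone it was -0.45.

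Within the combination group library 89 (replicate 4) stood apart. It held the lowest value of the 5 for 35 of the 50 genes and the highest for 13, while library 90 (replicate 3) held the highest for 26. The median of the 50 genes relative to the R1881 mean was -0.50 in library 89 and -0.37 to -0.42 in the other 4. Among the R1881 libraries, library 73 held the lowest value of the 10 for 21 genes and the highest for 9. Without libraries 89 and 90 the log2 fold changes were -1.14 for SEC24D, -0.91 for SSR3, -0.74 for SPCS3 and -0.71 for KDELR2.

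Another 92 genes of the same route that were in the table, in 7 lists, were lower in 60 cases, higher in 4 and not past the test in 28, with a median log2 fold change of -0.24. Of 9 other targeting and translocon genes 8 were lower. Among them DNAJB9, a co-chaperone of BiP in the ER lumen, changed by -1.22 ± 0.074 (adjusted p = 2.55e-10) and TRAM1, a membrane protein beside Sec61, by -0.54 ± 0.045 (adjusted p = 2.03e-08). The oligosaccharyltransferase attaches N-glycans to proteins in the channel, and 11 of its 12 genes were lower, with RPN1 at -0.56 ± 0.027 (adjusted p = 1.03e-11) and OSTC at -0.48 ± 0.037 (adjusted p = 7.45e-09). Of 26 tethers and SNAREs between ER and Golgi 21 were lower, with GOLGA2, a Golgi matrix protein, at -0.83 ± 0.045 (adjusted p = 5.71e-11) and GORASP2, a Golgi stacking protein, at -0.44 ± 0.03 (adjusted p = 1.12e-09).

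The remaining lists were more mixed. Of 20 other COPII and ER exit genes 10 were lower and 2 higher, with the cargo receptor SURF4 at -0.62 ± 0.052 (adjusted p = 1.92e-08) and ERGIC2 at -0.60 ± 0.054 (adjusted p = 5.19e-08). Of 8 other COPI and ARF genes 4 were lower, with ARFGAP3, which ends the ARF cycle, at -0.68 ± 0.033 (adjusted p = 1.02e-11) and GBF1, which starts it, at -0.58 ± 0.034 (adjusted p = 1.24e-10). Of 10 genes of the ER membrane complex, which inserts membrane proteins, 6 were lower, with EMC7 at -0.25 ± 0.042 and EMC2 at -0.24 ± 0.051 (adjusted p = 9.46e-05 and 0.000678). In the pathway that inserts tail-anchored proteins without SRP 0 of 7 genes were lower and 2 higher, with a median log2 fold change of -0.13. Without combination libraries 89 and 90, ASNA1, BAG6 and SGTA passed as lower (-0.26, -0.17 and -0.37, adjusted p = 0.0226, 0.0167 and 0.0167). CAMLG, its membrane receptor, was 32.8 ± 2.24 CPM with R1881 and 44.5 ± 1.80 CPM with the combination, and its log2 fold change was 0.44 ± 0.05 (adjusted p = 1.14e-06). WRB, the partner of CAMLG, was at 0.099 ± 0.039 (adjusted p = 0.0445). The call of WRB was lost when any of 10 single libraries was left out.

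**Figure D5:**
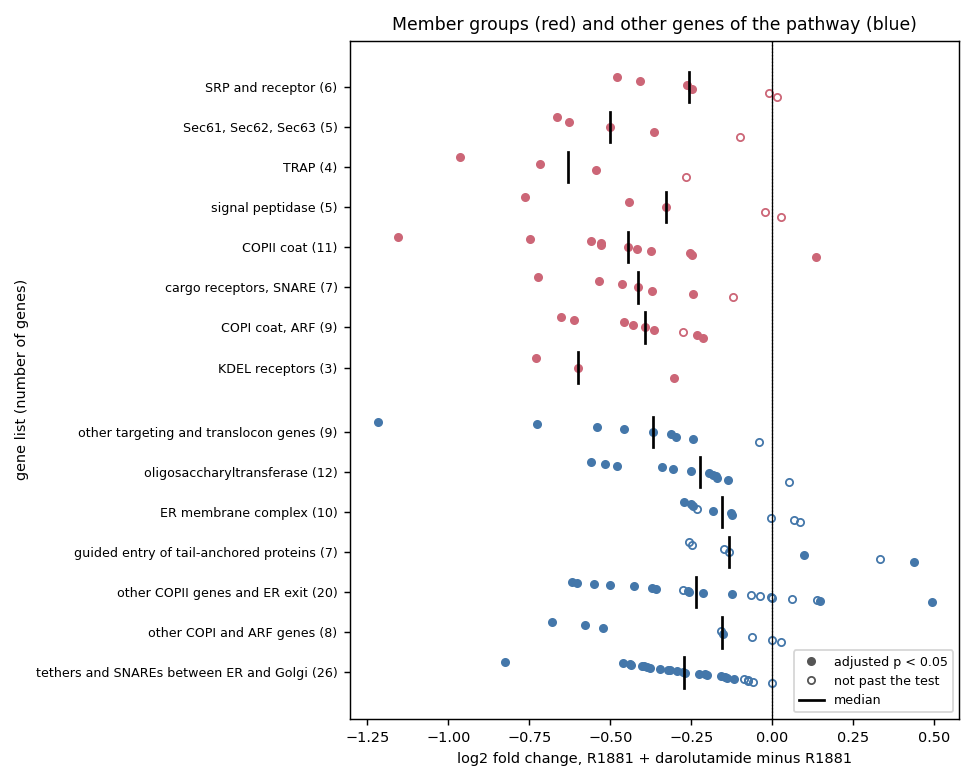
Log2 fold change (x axis, combination minus R1881) of the 50 genes by complex (red) and of 92 other genes of the pathway by list (blue, y axis with the number of genes). Filled points passed the test, open points did not, and black bars are medians. Medians run from -0.63 to -0.26 in the 8 red groups and from -0.37 to -0.13 in the 7 blue lists.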

How the data were processed

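Reads were mapped to GRCh38 by the authors using STAR and assigned to genes by featureCounts, and CPM values were deposited. Their versions and the annotation are not given in the sources used here. As deposited, the values are a signal scaled per library, since 100% of them came out as whole reads, within 0.001 reads, when divided by 1 factor per library and the columns did not sum to 1 total. The gene filter is not stated. Groups and the R1881 dose follow the labels, since the text of the study gives the group sizes the other way round and another dose. The text of the study calls the replicates biological, but the labels do not say how cultures were made. The p-values therefore reflect only how these libraries vary, which may be technical. No library was a duplicate (chi-square per degree of freedom of at least 1.63 between replicates). This value was 32.7 to 68.0 between combination library 89 and the other combination libraries, and 2.34 to 10 among those others. Between R1881 libraries it reached 27.0.

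The test was limma (3.58.1) with trend on log2(CPM + 0.5) over all 17272 genes and 15 libraries, with Benjamini-Hochberg adjusted p under 0.05. Fold changes are on that scale. edgeR (4.0.16) with TMM on the recovered reads called 3943 genes lower and 4106 higher. Data were simulated for this comparison with 17272 genes and the spread of the R1881 libraries. The genes given a change were drawn only from those with a mean of at least 100 reads. Of these, limma called 93 of 100 genes given a log2 change of 0.5. It called 100 of 100 given a change of 1, and 10 of 17072 given none. These counts hold for the simulated data only. The largest chi-square between replicates was higher in the combination group than in the R1881 group, and its bearing on these counts was not tested. Other alternatives were DESeq2 (1.42.0), pseudocounts of 0.1 and 1, a minimum mean of 1 CPM, scaling by library totals, the replicate number as a block, either R1881 run, and leaving out libraries.

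Replicate numbers 1 to 5 occur in both groups. The deviations of same-numbered libraries correlated by -0.139 to 0.335, and 0 of 5 combination libraries were closest to their own number, so the numbers were not taken as pairs.

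The members and lists were chosen with earlier results of these data known. Values per library are given for the 2 members of smallest p in each complex and any member with an absolute log2 fold change above 1, and up to 2 genes of smallest p are named in each other list. Per-library values of other members were chosen after their values were seen. SRPRA and MIA2 were matched as SRPR and CTAGE5, and SEC16B and COPZ2 of the other lists were not used here. By GENCODE version 44 on GRCh38, 39 of the 50 genes overlap another gene (14 on the same strand, SAR1B and SEC24A each other on opposite strands) and 17 have named pseudogenes. The kit marks strand, but the strand setting of the counting is not given in the sources used here, so reads of overlapping genes are uncertain.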

Additional observations from a re-analysis of the deposited data

Results flagged for a closer look

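Each member was examined in each group for a highest or lowest library whose gap to the nearest other is large for the range of the group (Dixon's ratio at the 95% level). Of 100 such groups 5 were picked out, and chance alone picks out about 1 in 20.

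Library 89 (combination replicate 4) was picked out for 4 genes. COPE was 95.5 CPM there and 16.9 to 32.8 CPM in the other 4 combination libraries. LMAN2 was 149 CPM (148.9) there and 65.5 to 88.1 CPM in the others. TMED2 was 343 CPM (343.4) in that library and 383 to 394 CPM in the others, and TMED10 was 394 CPM (393.8) and 431 to 442 CPM. The direction thus differed, with COPE and LMAN2 high and TMED2 and TMED10 low in that library. For SEC24D, library 87 (combination replicate 1) was 45.8 CPM and the other 4 were 40.4 to 41.7 CPM, all far below the R1881 range of 84.1 to 102 CPM.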

How the results depend on the processing

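Over the 25 alternatives tried for each gene, the number of members called lower stayed between 41 and 44, and 41 of the 42 members that passed kept their direction and call in every alternative. The exception was SEC23A against R1881 libraries 51 to 55 only (0.12, adjusted p = 0.0796), which left 0 members and 0 COPII genes higher. With scaling by library totals 3 members were higher, 1 of them in the SRP group and 1 in signal peptidase, and 8 other genes of the pathway were higher, with 44 lower. Members higher in R1881 libraries 71 to 75 numbered 1 to 4 when 1 library was left out.

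The replicate block, fitted on numbers 1 to 5 of both groups, gave 41 members lower and 3156 and 3084 genes of the table lower and higher. It changed no call of a member, and WRB did not pass under it (0.10, adjusted p = 0.137). WRB also did not pass against either R1881 run alone (0.072 and 0.13), or when any of 10 single libraries, 4 of them combination libraries, was left out.

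Members near 0 changed sign. SRP9 was 0.0020 with DESeq2, 0.060 with scaling by library totals, 0.027 with the replicate block, 0.035 against libraries 71 to 75 only and 0.019 without combination replicates 3 and 4, and -0.039 to 0.031 with single libraries left out. SEC11A was 0.049 with scaling by library totals, and LMAN2 was 0.019 against libraries 51 to 55 only. Without combination replicate 4, SSR4, LMAN2 and COPE passed as lower, and without combination replicate 3 SEC62 did (-0.13, adjusted p = 0.025). Among the ratios, KDELR2 over KDELR3 passed with a pseudocount of 1 (-0.17) and against libraries 71 to 75 only (-0.21), and ran from -0.16 to -0.11 with single libraries left out, where it passed in 5 of 15 cases. KDELR1 over KDELR3 was 0.21 (exact permutation test, adjusted p = 0.0705) against libraries 71 to 75 only. Scaling by library totals, tried on the 10 ratios after seeing the data, changed no call of a pair. It could not test the ratios, because a factor per library cancels within a library apart from the pseudocount. The cause of the changes under the other alternatives was not tested. The SE of the members ran from 0.029 to 0.29 on the log2 scale with a median of 0.042, which bounds the changes that depth and spread allow to be seen.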

Other observations

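The letters ACGTGGC were also looked for outside the 50 genes, a comparison chosen after the members' promoters had been seen. Of 71 other pathway genes with a RefSeq promoter 8 (11.3%) held them, and of 9968 promoters of measured genes 4.47% did. Without the 50 members, 427 genes of the table had the letters, and 34% of these were lower with darolutamide, beside 26.3% of the 9923 genes with a promoter. Their median log2 fold change was -0.072, beside -0.0032. These are descriptions of overlapping groups of genes with no test.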
